A study of Mus musculus with 2 samples.

Results

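The Hox genes of the 4 mouse Hox clusters were read in polyadenylated RNA of adult lung. All protein-coding genes whose symbol is Hoxa, Hoxb, Hoxc or Hoxd followed by a number were taken, which gave 39 of 21474 protein-coding genes and of 43346 gene rows. Cluster A held 11 of them, cluster B 10, cluster C 9 and cluster D 9. The tissue was untreated lung of C57BL/6J mice, 8 weeks old, with littermates of both sexes pooled. It was measured in 2 libraries of stranded paired reads of 76 nt, from RNA longer than 200 nt. The labels call the libraries biological replicates 1 and 2 of 1 group and give them a shared donor record and separate tissue samples. There is no second group, so no p-value is given, and every difference compares these 2 libraries and may be technical in part.

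Hox genes encode homeodomain transcription factors that give cells their position along the body axis. Within a cluster the genes lie in the order in which they are used: low paralog numbers sit at the 3′ end and pattern anterior structures, while high numbers sit at the 5′ end and pattern the trunk, limbs, hindgut and genital tract. In the mouse lung, which buds from the anterior foregut, Hoxa5 and other genes of the central paralogs are known from the mesenchyme, where Hoxa5 is needed for normal formation of the trachea and lung.

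Gene rows held 48234745 expected counts in replicate 1 and 44182836 in replicate 2. The lung identity of both libraries was plain from 7 of 7 markers of lung epithelium, 6 of 6 of lung mesenchyme and 3 of 3 of endothelium at 1 TPM (a length-scaled share of transcripts) or more in each. The libraries stood apart, however, in markers of other tissues. Replicate 1 was at least 2-fold higher for 5 of 5 markers of oesophageal squamous epithelium (217785 summed counts in replicate 1 and 32 in replicate 2), 9 of 9 of skeletal muscle (129018 and 2396 counts) and 2 of 2 of brown fat. Replicate 2 was at least 2-fold higher for 7 of 7 markers of intestinal epithelium (105 summed counts in replicate 1 and 4871 in replicate 2), for the 4 pancreas markers with enough counts (46 and 1903 counts), for 3 of 3 of white fat and for 3 of 6 of blood. No marker of cardiac muscle (4), smooth muscle (3) or kidney (3, of which 1 had enough counts) was 2-fold apart. Each Hox value below is therefore given for each library on its own.

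The paralogs of the clusters share the homeodomain, so reads could in principle be assigned to the wrong copy. Hoxa5 and Hoxb5 shared no word of 76 bases, the read length, with any other gene, and Hoxc5 shared 3.09% of its words, with Hoxc10. Across annotated transcripts, 30 of 39 Hox genes shared no 76-base word with any other gene, and 9 shared some. Words were compared in the sense direction only, so overlap with genes on the opposite strand was not searched. The transcripts were those of GENCODE release M21, while the reads were placed with release M4. The largest overlaps were those of Hoxd3 (59.0% of its words) and Hoxd4 (43.8%), which share sequence with each other and with the read-through gene Gm28230, so their separate counts are uncertain. Hoxa2 (11.4%) and Hoxa3 (6.86%) share words with the read-through gene Gm28308. Hoxd11 shared 9.41% of its words with a range of other genes, among them Nkx2-1, so its few counts are uncertain too.

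Adult lung had a block of 12 Hox genes that reached 1 TPM in both libraries: 7 of cluster A, among them Hoxa2 to Hoxa7, and Hoxb2 to Hoxb6 of cluster B. No gene of cluster C or D reached that level in both. Of all protein-coding genes, 60.5% passed the same threshold, so the Hox genes were detected less widely than the genome at large. The median Hox gene stood at 0.30 TPM in replicate 1 and 0.22 in replicate 2, against 4.70 and 3.51 TPM for all protein-coding genes. Of the other 27 Hox genes, 2 passed in replicate 1 only (Hoxc4 and Hoxc5), 3 in replicate 2 only (Hoxb7, Hoxb13 and Hoxd4) and 22 in neither. In RNA of whole tissue, fewer cells of a type and less RNA per cell cannot be told apart, so a low level may stand for a gene used by few cells.

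**Figure D1:**
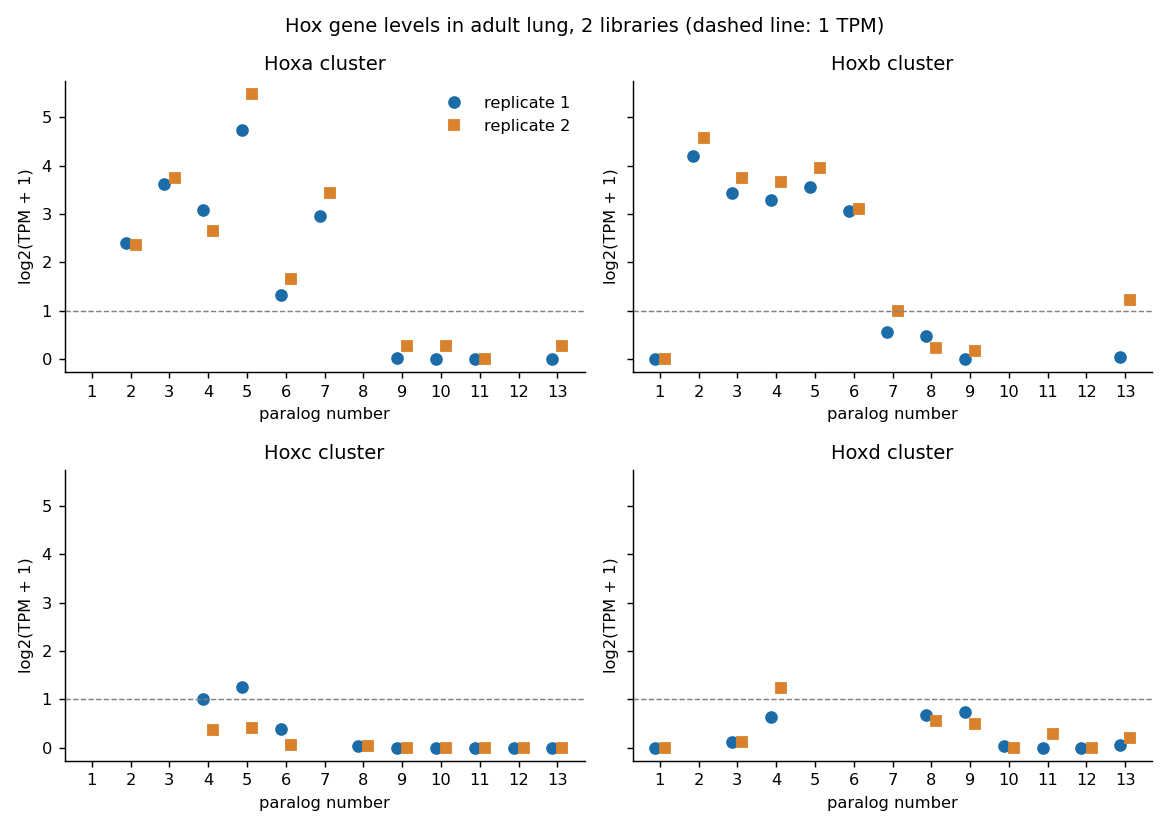
Level of the Hox genes, as log2(TPM + 1), against paralog number, with 1 panel for each cluster; circles are replicate 1, squares are replicate 2 and the dashed line marks 1 TPM. Hoxa2 to Hoxa7 and Hoxb2 to Hoxb6 lie above the line in both libraries, and all genes of paralogs 8 to 13 lie below it in both except Hoxb13, which passes it in replicate 2.

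The A and B clusters supplied almost all Hox transcript, in nearly equal parts. Summed TPM of cluster A was 58.9 in replicate 1 and 79.4 in replicate 2, or 69.2 ± 14.5 (SD, n = 2), and that of cluster B was 55.01 and 71.64, or 63.3 ± 11.8. These sums were 49.7% and 51.5% of all Hox TPM for cluster A, and 46.4% in each library for cluster B. Cluster C had 2.72 TPM in replicate 1 and 0.67 in replicate 2, and cluster D had 1.97 and 2.64. Cluster A was slightly above cluster B in each library, and both stood far above the others.

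Hoxa5 (ENSMUSG00000038253.6, chr6:52201754-52204587, minus strand) was the highest Hox gene in both libraries. It had 25.8 TPM in replicate 1 and 43.6 in replicate 2, from 1555 and 2566 counts, a mean of 34.7 ± 12.6 TPM. It alone made up 21.8% and 28.3% of all Hox TPM and stood at percentile 82.5 of the mean TPM of protein-coding genes. Scaled by library size with the trimmed mean of M-values (TMM), it was 1.98-fold higher in replicate 2, with an exact 95% counting interval of 1.86 to 2.11. That interval, like the others given here, covers counting error only and not the variation between animals. Among the 6 markers of lung mesenchyme, Foxf1 had 172 TPM in replicate 1 and 378 in replicate 2, Tbx4 had 71.3 and 74.1 TPM, and Pdgfra had 59.8 and 39.7 TPM, so the list did not move as one.

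The other genes of the Hoxa block spread over a wide range without a steady order. Hoxa3, which patterns the pharyngeal region that gives rise to thymus and parathyroid, had 11.4 TPM in replicate 1 and 12.5 in replicate 2. Hoxa7 had 6.76 and 9.86 TPM, and Hoxa4 had 7.46 and 5.26 TPM. The ranges of these last 2 genes overlapped, so their order is not settled. Hoxa2, known for hindbrain and second pharyngeal arch identity, was at 4.31 and 4.16 TPM. Hoxa6, which lies just next to the leading Hoxa5, was low, at 1.5 TPM in replicate 1 and 2.13 in replicate 2 from 36 and 50 counts.

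Past Hoxa7 the cluster had almost no counts. Hoxa9 had 1 count in replicate 1 and 7 in replicate 2, Hoxa10 and Hoxa13 had 0 and 7 counts each, and Hoxa11 had none in either. Thus Hoxa7, with 376 and 403 counts, was next to a gene with single-digit counts in both libraries, and no other Hox gene lies between them. A count of 0 here allows up to 3 counts in that library. Hoxa9, Hoxa10 and Hoxa13 act in posterior development, including the uterus, limb buds and hindgut.

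The Hoxb block was more even. Hoxb2 (chr11:96350525-96354012, plus strand) led it with 17.5 TPM in replicate 1 and 23.0 in replicate 2, a mean of 20.2 ± 3.89 TPM. Hoxb5, a regulator of airway branching in the mouse embryo that acts together with Hoxa5, had 10.8 and 14.6 TPM. Hoxb3 had 9.78 and 12.3 TPM, and Hoxb4, a gene whose forced expression expands blood stem cells, had 8.79 and 11.6 TPM. Hoxb5, Hoxb3 and Hoxb4 kept this order in both libraries, by less than the difference between the libraries. Hoxb6 closed the block at 7.32 TPM in replicate 1 and 7.54 in replicate 2. Hoxb1, a gene of the hindbrain segments, lies at the 3′ end of the cluster before Hoxb2 and had no counts in either library, so the block had an edge on both sides.

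The 5′ edge of the Hoxb block was less abrupt than that of Hoxa. Hoxb7 had 18 counts in replicate 1 and 38 in replicate 2 (0.46 and 1.00 TPM), Hoxb8 had 16 and 8 counts (0.39 and 0.17 TPM), and Hoxb9 had 0 and 9 counts. The levels of Hoxb7 and Hoxb8 did not overlap with that of Hoxb6. Only Hoxb13, which is set off from Hoxb9 by a wide gap and is known from the prostate and the distal colon, broke the decline, and it did so in replicate 2 alone.

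**Figure D2:**
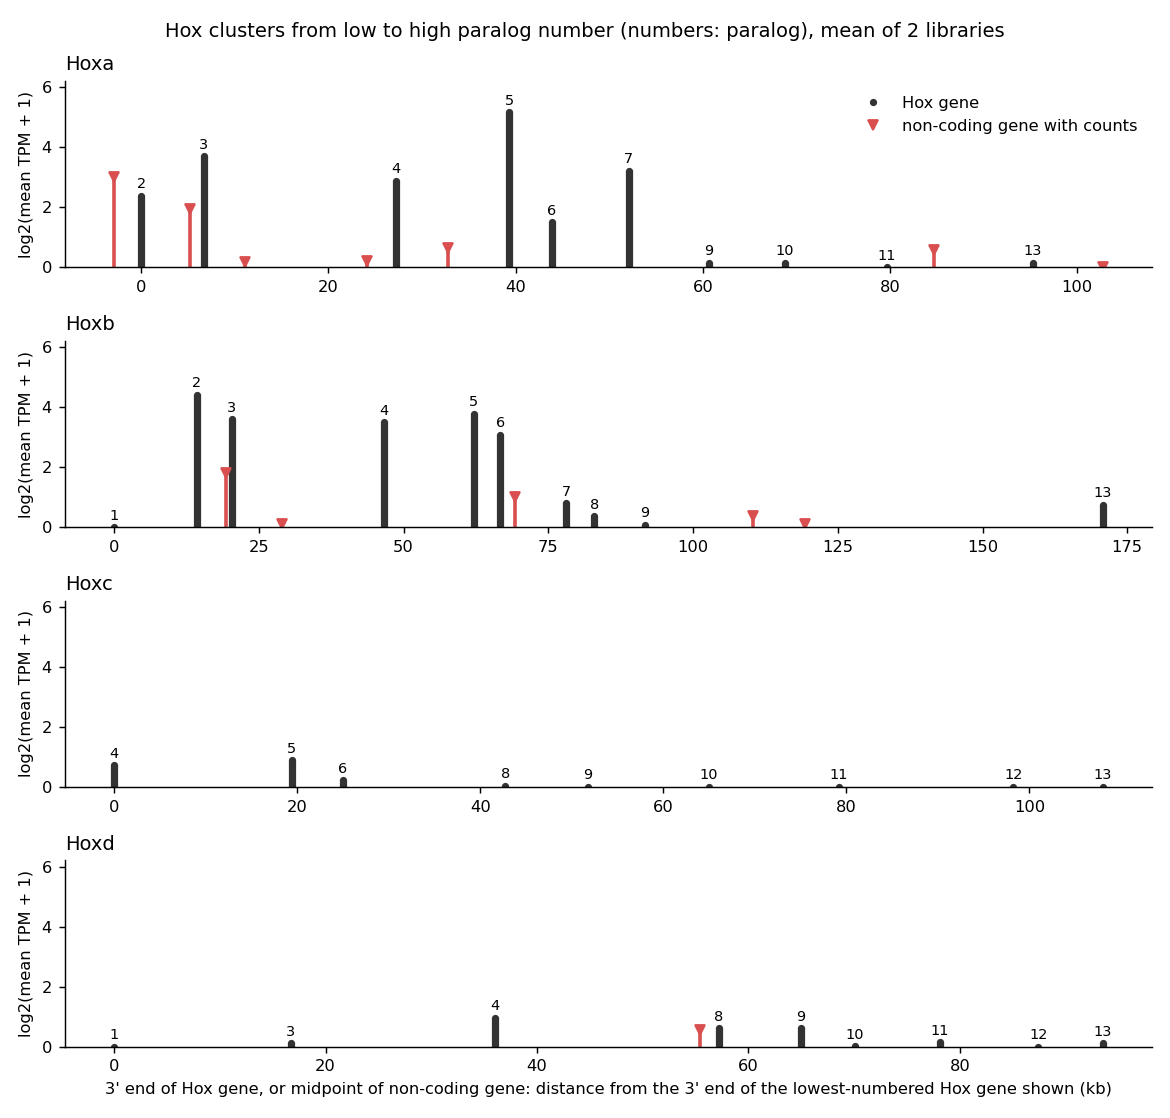
The 4 clusters drawn to scale, each on its own distance axis in kb and running from low to high paralog number; black bars stand at the 3′ end of each Hox gene and red triangles at the midpoint of each non-coding gene with counts, and height is log2(mean TPM + 1) of the 2 libraries. In clusters A and B the tall bars stand together at the low-number end, up to Hoxa7 and Hoxb6, while clusters C and D have no tall bar.

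In cluster C only the 3 lowest-numbered genes had more than 2 counts in a library. Hoxc5 (chr15:102967443-103017429, plus strand) had 135 counts in replicate 1 and 32 in replicate 2 (1.38 and 0.33 TPM). Hoxc4 had 70 and 18 counts (1.01 and 0.28 TPM), and Hoxc6 had 15 and 2 counts (0.30 and 0.04 TPM). Hoxc8, a gene of the thoracic trunk, had 2 counts and 1 count. Hoxc9, Hoxc10, Hoxc11, Hoxc12 and Hoxc13 had none in either library. The 5 genes without counts include Hoxc13, a regulator of hair and nail keratins.

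Cluster D was low throughout and had no block. Hoxd4 had 27.4 expected counts in replicate 1 and 59.5 in replicate 2 (0.56 and 1.34 TPM). Hoxd8 had 52 and 39 counts (0.59 and 0.46 TPM), and Hoxd9 had 46 and 27 (0.66 and 0.40 TPM), so both lay under 1 TPM in each library. Hoxd3 had 8.93 and 8.08 expected counts, and its transcripts share sequence with Hoxd4, as given above. Of the limb and digit genes of this cluster, Hoxd10 had 2 counts and none, Hoxd11 none and 7, and Hoxd13 had 3 and 11. Hoxd1 and Hoxd12 had no counts in either library.

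Read by paralog number over all clusters, 12 of 20 genes of paralogs 1 to 7 passed 1 TPM in both libraries and 0 of 19 genes of paralogs 8 to 13 did. Of all protein-coding genes, 60.5% passed. The 12 of 20 was thus near the common share, and the 0 of 19 lay below it. Paralog 5 had the highest summed level, 38.0 TPM in replicate 1 and 58.5 in replicate 2. Paralogs 2, 3 and 4 followed, with mean sums of 24.5 ± 3.78, 23.1 ± 2.58 and 18.2 ± 0.467 TPM. The ranges of the first 2 of these overlapped, with paralog 2 the higher in each library. Paralog 12 had no counts. Spearman's rho of mean level and paralog number was -0.53 over the 39 genes. Within clusters it was -0.63 for A (11 genes), -0.38 for B (10), -0.89 for C (9) and -0.06 for D (9). In C, 5 of the 9 genes are tied without counts and only 2 averaged 10 counts, of which Hoxc5 lay above Hoxc4. Its value therefore does not show a graded order. These are descriptions only, since genes of a cluster share a locus and all points share the same 2 libraries.

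The 2-fold differences between libraries lay in low genes outside the block. Among the 20 Hox genes that averaged 10 counts or more, 2 were at least 2-fold higher in replicate 1 (Hoxc4 and Hoxc5) and 3 in replicate 2 (Hoxb7, Hoxb13 and Hoxd4), the same 5 that passed 1 TPM in 1 library only. Among all 17334 genes with that minimum, 10.1% were 2-fold apart, 6.69% with replicate 1 higher and 3.37% with replicate 2 higher. Between 10 and 100 mean counts, where 5 of 9 Hox genes were called, the share of all genes was 26.5%, or 17.8% with replicate 1 higher and 8.72% with replicate 2 higher. The 12 genes of the block were all under 2-fold. On the scale of log2(TPM + 0.1), Hoxb7 was no longer 2-fold apart, which left 4 calls, and of all genes called, 78.2% had replicate 1 higher, against 66.5% with TMM scaling.

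Replicate 2 was the higher one for most Hox genes with enough counts, Hoxb2 to Hoxb6 of the block among them. The median log2 ratio of replicate 1 over replicate 2 was -0.36 over the 20 genes that averaged 10 counts or more. These 20 include genes outside the block. Of them, 7 were higher in replicate 1 and 13 in replicate 2, and the median of all genes with that minimum was 0.02. The share of all genes higher in replicate 2 was not computed, for this count or for those of clusters A and B below. Library size scaling moved the median of all genes to 0.15 and TPM moved it to 0.22. Relative to it, the Hox median stood at -0.38 with TMM or library size scaling and -0.45 with TPM. In cluster B, replicate 2 was the higher one for 7 of 8 genes, and the median was -0.63. Those 8 include Hoxb7, Hoxb8 and Hoxb13, which lie outside the block. Hoxb2, Hoxb3, Hoxb4 and Hoxb5 had fold differences close to one another, between 1.48 and 1.59. In cluster A, 5 of 7 genes were higher in replicate 2, and Hoxa4 was 1.21-fold higher in replicate 1. Hoxa2 stood higher in replicate 2 after TMM scaling but higher in replicate 1 by TPM. Several lists of lung cells leaned the same way as the block, with a median log2 ratio of -0.30 over 6 markers of mesenchyme, -0.33 over 7 of lung epithelium and -0.16 over 3 of endothelium, with Pdgfra and Pecam1 as exceptions. The 3 smooth muscle markers leaned the other way, with a median of 0.47. Their part in the Hox difference was not tested.

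**Figure D3:**
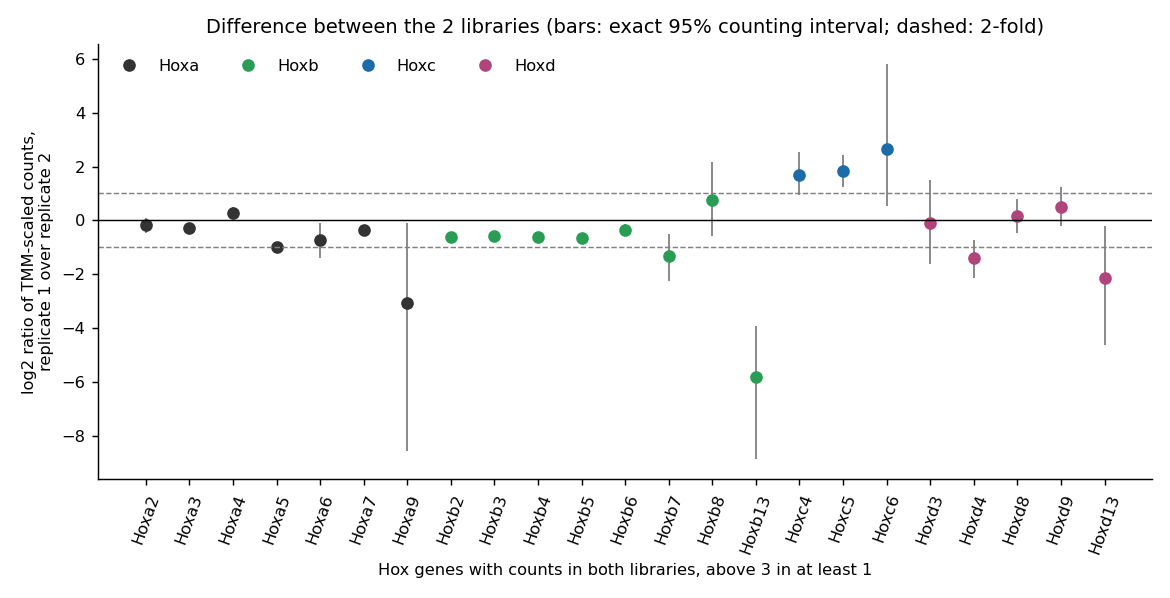
Log2 ratio of TMM-scaled counts, replicate 1 over replicate 2, for Hox genes with counts in both libraries and more than 3 in at least 1; bars are exact 95% counting intervals, the solid line is equality and dashed lines mark 2-fold. Most Hoxa and Hoxb points lie just under 0 with short bars, the 3 Hoxc points lie above the upper dashed line and Hoxb13 is the lowest point.

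The Hoxc genes with counts stood higher in replicate 1. Hoxc5 was 3.52-fold higher there (95% counting interval 2.38 to 5.35) and Hoxc4 3.24-fold (1.91 to 5.79). Hoxc6 was 6.26-fold higher, with an interval of 1.46 to 56.4 because replicate 2 had only 2 counts. Summed over the 3 genes, 220 counts of replicate 1 stood against 52 of replicate 2, which is 3.53-fold (2.60 to 4.87), while summed cluster A and cluster B counts were 1.51-fold and 1.55-fold higher in replicate 2. The marker lists with 2-fold higher genes in replicate 1 were those of oesophageal squamous epithelium, skeletal muscle and brown fat. Smooth and cardiac muscle lists leaned the same way by less, with median log2 ratios of 0.47 and 0.45. Of 5 oesophageal markers, all were 2-fold higher in replicate 1, and Krtdap and Krt6a were at 0 in replicate 2. Of 9 muscle markers, 5 were at 0 in replicate 2. The part of these tissues in the Hoxc difference was not tested.

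Posterior genes, by contrast, summed to more in replicate 2. The 16 genes of paralogs 9 to 13 summed to 54 counts in replicate 1 against 169 counts in replicate 2, which is 3.75-fold (2.75 to 5.20). With the 3 genes of paralog 8, all with more counts in replicate 1, the sums were 124 and 217 counts, or 2.10-fold (1.67 to 2.64). Hoxb13 (ENSMUSG00000049604.3, chr11:96194316-96197447, plus strand) had 2 counts in replicate 1 and 94 in replicate 2 (0.03 and 1.34 TPM), a ratio of 56.3 with an interval of 15.2 to 472. Of the 16 genes, 7 had more counts in replicate 2, 2 in replicate 1 and 7 had none. Hoxd9 supplied 46 of the 54 counts of replicate 1. Without Hoxd9 the sums were 8 counts in replicate 1 and 142 in replicate 2, and without Hoxd9 and Hoxb13 they were 6 and 48. The rest of the difference came from posterior genes of clusters A, B and D with 7 to 11 counts each in replicate 2. Among them, Hoxd11 shares part of its sequence with other genes, so its counts are uncertain.

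Intestinal markers were higher in the same library. The caudal homeobox genes Cdx1 and Cdx2, which activate posterior Hox genes in the embryo and keep intestinal identity in the adult, were near 0 in replicate 1. Cdx1 had 2 counts in replicate 1 and 135 in replicate 2, and Cdx2 had 1 and 57. They belong both to the ParaHox genes, a sister group of the Hox clusters, and to the list of intestinal markers. The other 4 ParaHox genes, Cdx4, Gsx1, Gsx2 and Pdx1, had no counts in either library. Intestinal Muc2 had 48 counts in replicate 1 and 2619 in replicate 2, and Tff3 had 0 and 190. Pancreas and white fat markers and 3 of 6 blood markers were also at least 2-fold higher in replicate 2. The 3 kidney markers were low, with 25 summed counts in replicate 1 and 32 in replicate 2. The part of these tissues in the posterior Hox counts was not tested.

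**Figure D4:**
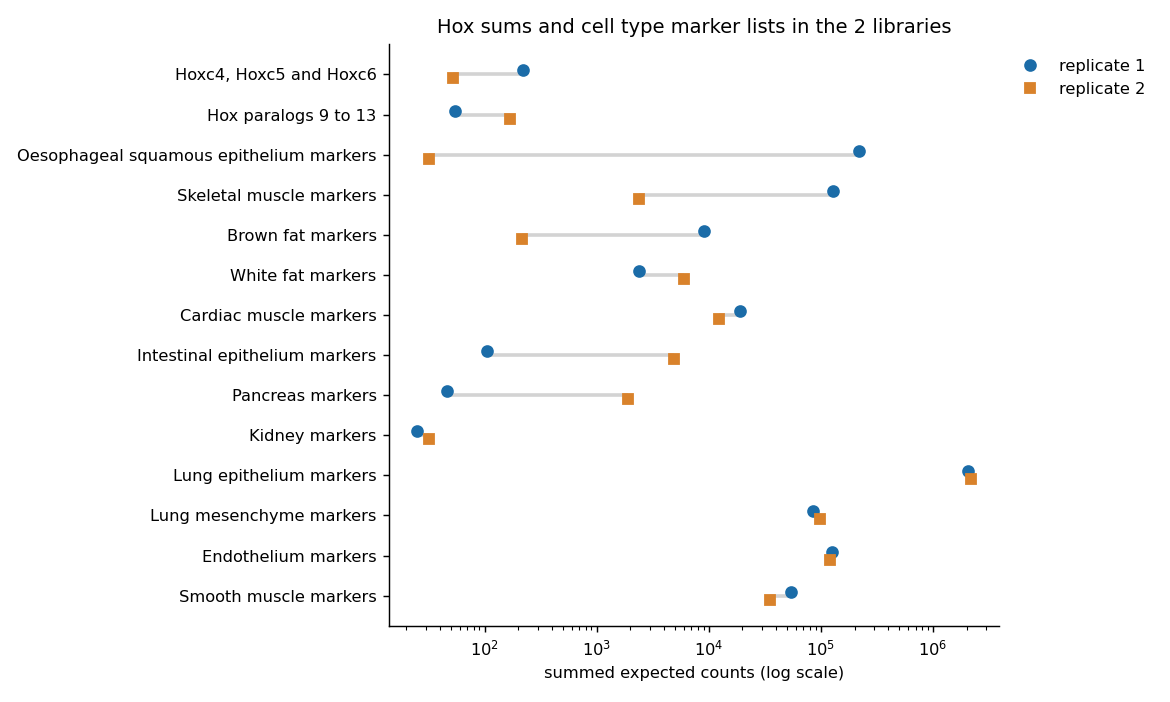
Summed expected counts (log axis) of 2 Hox sets and of 12 lists of cell type markers; circles are replicate 1 and squares are replicate 2, joined by a grey line. The sum of Hoxc4, Hoxc5 and Hoxc6 lies higher in replicate 1, as do the oesophageal, skeletal muscle and brown fat lists, and the sum of paralogs 9 to 13 lies higher in replicate 2, as do the intestinal, pancreas and white fat lists.

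The non-coding genes that were detected lay beside the coding block. Within the clusters and 20 kb on either side, 48 genes without a protein-coding type were annotated, of which 3 passed 1 TPM in both libraries and 35 had no counts in either. The 35 include 20 genes typed as miscellaneous RNA and 6 microRNA genes. The same shares over all non-coding genes were not computed, so these counts are not read as particular to the Hox clusters. Hotairm1, an antisense transcript at the 3′ end of cluster A, was the highest, at 6.34 TPM in replicate 1 and 7.72 in replicate 2 from 53 and 74 counts. Hoxaas2, beside Hoxa3, had 2.97 and 2.67 TPM. Hoxb3os, on the strand opposite Hoxb3 and Hoxb2, had 2.18 and 2.79 TPM. All 3 lie next to or across genes of the expressed block, and the libraries were stranded, although the sources used here do not state how strand was used in counting. Hotair of cluster C and Haglr of cluster D had no counts. The 6 microRNA genes, among them Mir10a and Mir196b, had none either, in RNA selected for length and a poly(A) tail.

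At the 5′ ends, 4 non-coding genes had counts in replicate 2 only. The share of all genes with counts in 1 library only was not computed. Hoxa11os is antisense to Hoxa11, which had no counts. It had 0 counts in replicate 1 and 36 in replicate 2. That is 14.4-fold higher when the 0 is read as 3 counts, and the exact 95% lower limit was 11.1-fold. Gm53, which lies between Hoxb13 and Hoxb9, had 0 and 21 counts, 8.39-fold higher by the same reading and with an exact lower limit of 6.24-fold. Hottip, beyond Hoxa13, had 0 and 2 counts, and the pseudogene Gm11539 had 0 and 2.01 expected counts. Neither of these passed the 3 counts that a 0 allows here, so the difference rests on Hoxa11os and Gm53. These 4 genes lie among the posterior Hox genes that also had more counts in replicate 2. The intestinal, pancreas and white fat markers given above, and 3 of 6 blood markers, were higher in that library too. Their part was not tested.

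The partners of Hox proteins were well expressed, with less than 2-fold difference between libraries. All 9 TALE homeodomain cofactors, the Pbx, Meis and Pknox proteins that bind DNA together with Hox proteins, passed 1 TPM in both libraries, and 0 of 9 were 2-fold apart. Of protein-coding genes, 60.5% passed 1 TPM in both. Of all genes that averaged at least 50 counts, as these 9 did, 6.66% were 2-fold apart. The 0 of 9 was thus near the common share. Pbx2 was highest at 77.8 TPM in replicate 1 and 81.2 in replicate 2. Meis1 had 27.7 and 24.2 TPM, while Pbx4 was lowest at 4.92 and 3.90 TPM. Summed TPM of the cofactors was 255 in replicate 1 and 246 in replicate 2, above the Hox sums of 119 and 154 TPM.

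All 20 listed chromatin regulators of Hox clusters passed 1 TPM as well, against 60.5% of protein-coding genes, and 0 of 20 were 2-fold apart. All 20 averaged more than 50 counts. With that minimum 6.66% of all genes were 2-fold apart, so 0 of 20 was near the common share. On the activating side, the trithorax methyltransferase Kmt2b had 52.3 TPM in replicate 1 and 47.2 in replicate 2, Kmt2a had 20.1 and 17.4 TPM, and their partner Men1 had 44.1 and 51.1 TPM. On the repressive side, the Polycomb reader Cbx7 had 67.3 and 67.5 TPM and Ezh1, the Polycomb methyltransferase typical of resting tissue, had 44.5 and 36.3 TPM. Ezh2, its counterpart in dividing cells, had 3.75 and 1.97 TPM. Of the genes flanking the clusters, 7 of 9 passed 1 TPM in both libraries, among them Mtx2 beside cluster D at 27.7 and 35.0 TPM and Skap2 beside cluster A at 17.1 and 10.4 TPM. The exceptions were the homeobox genes Evx1 and Evx2, which flank the 5′ ends of clusters A and D and had 0 counts in replicate 1 and 4 and 1 counts in replicate 2.

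Transcript shares were similar in both libraries for most of the block. Of the 12 detected genes, 5 had 1 annotated transcript and 7 had several, and in 7 of 7 the same transcript led in both libraries, with a median share of 89.8% of the gene's TPM. Hoxb3 split between Hoxb3-201 (76.3% in replicate 1 and 78.1% in replicate 2) and Hoxb3-202, which starts farther upstream. Hoxb6-201 had 80.4% in replicate 1 and 67.5% in replicate 2. Hoxa7 was the least settled. Its leading transcript, Hoxa7-205, is annotated as a target of nonsense-mediated decay and had 67.4% in replicate 1 and 44.9% in replicate 2. The coding transcript Hoxa7-203 had 16.9% and 44.0%, from 18.0 and 66.4 expected counts. These shares are the authors' estimates from short reads, which divide reads among overlapping transcripts, and were not checked by another method here.

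For Hoxc4, a gene with few counts, the leading transcript differed between the libraries. All 70 counts of replicate 1 were assigned to Hoxc4-202, which starts at position 103018934 of chromosome 15. In replicate 2, 14.5 of 18 expected counts went to Hoxc4-201, which starts farther downstream at position 103034395, and 3.51 to Hoxc4-202. By this estimate, which rests on few reads, the share of Hoxc4-202 was 100% in replicate 1 and 18.4% in replicate 2.

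**Figure D5:**
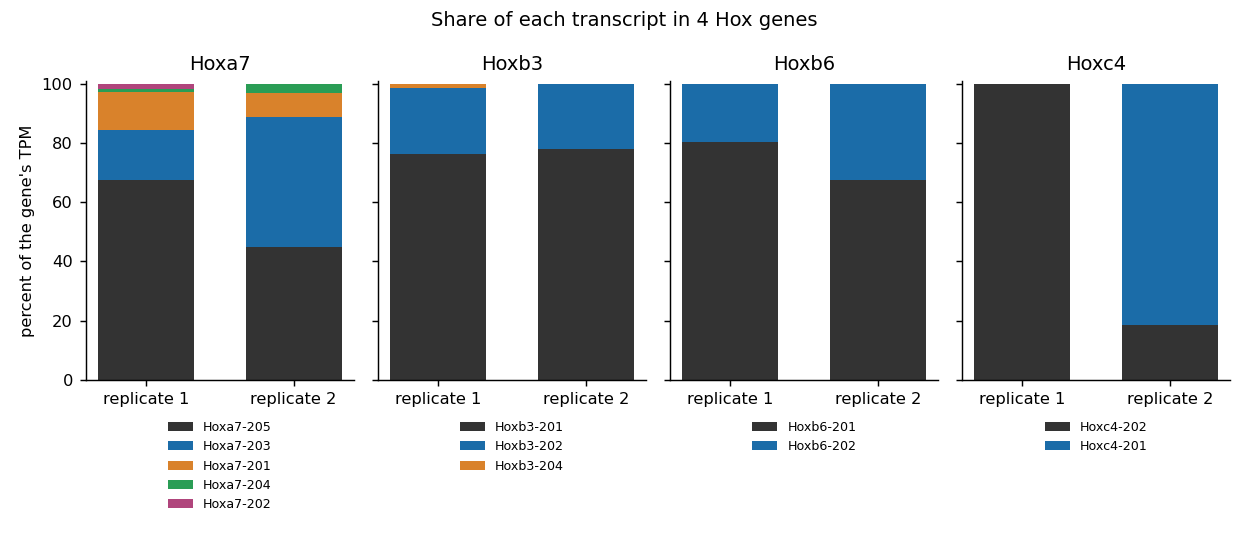
Share of each annotated transcript in the TPM of Hoxa7, Hoxb3, Hoxb6 and Hoxc4, stacked to 100%, with replicate 1 on the left and replicate 2 on the right of each panel. Hoxb3 looks alike in both libraries, Hoxa7-203 takes 16.9% in replicate 1 and 44.0% in replicate 2, and Hoxc4 shows 100% Hoxc4-202 in replicate 1 and 18.4% in replicate 2.

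The 250 bases before the annotated start are shown for 4 genes: Hoxa5, the highest gene of the block; Hoxb4, a gene in the middle of the Hoxb block; Hoxa9, the first gene past Hoxa7, with almost no counts; and Hoxc4, whose start shown here is that of Hoxc4-201. They are RefSeq promoters of GRCm38.p6 at chr6:52204588-52204837 (Hoxa5, minus strand), chr11:96318017-96318266 (Hoxb4, plus strand), chr6:52227371-52227620 (Hoxa9, minus strand) and chr15:103034145-103034394 (Hoxc4, plus strand). Capitals mark matches, on either strand, to the 6 motifs searched, which are spelled out after the sequences.
Hoxa5: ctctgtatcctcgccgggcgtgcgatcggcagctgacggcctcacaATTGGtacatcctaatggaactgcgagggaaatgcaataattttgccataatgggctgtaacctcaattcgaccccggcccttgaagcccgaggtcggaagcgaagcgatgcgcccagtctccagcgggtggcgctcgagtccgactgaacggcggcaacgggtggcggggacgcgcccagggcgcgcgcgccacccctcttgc
Hoxb4: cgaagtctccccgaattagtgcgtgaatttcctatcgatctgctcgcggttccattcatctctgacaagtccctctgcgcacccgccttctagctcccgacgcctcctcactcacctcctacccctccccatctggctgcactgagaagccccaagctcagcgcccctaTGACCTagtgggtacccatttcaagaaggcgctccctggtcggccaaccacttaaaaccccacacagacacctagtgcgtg
Hoxa9: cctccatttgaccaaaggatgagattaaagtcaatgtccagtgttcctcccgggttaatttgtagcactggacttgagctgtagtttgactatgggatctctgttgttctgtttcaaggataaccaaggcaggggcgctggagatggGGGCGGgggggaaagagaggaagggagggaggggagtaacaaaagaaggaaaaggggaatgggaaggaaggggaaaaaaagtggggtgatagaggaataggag
Hoxc4: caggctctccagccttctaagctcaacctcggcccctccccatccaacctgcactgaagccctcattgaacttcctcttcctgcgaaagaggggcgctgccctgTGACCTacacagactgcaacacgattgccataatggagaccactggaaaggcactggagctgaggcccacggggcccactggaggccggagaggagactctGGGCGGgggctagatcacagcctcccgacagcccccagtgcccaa
The motifs were the TATA box (TATAAA), the CCAAT box (CCAAT), the GC box (GGGCGG), a nuclear receptor half-site (AGGTCA) such as retinoic acid receptors bind, a Cdx site (TTTATG) and a Hox-Pbx site (TGATTNAT). The Hoxa5 stretch held 1 CCAAT box, read on the opposite strand, and 28 CpG pairs, with an observed over expected CpG ratio of 1.11. The Hoxb4 stretch held 1 half-site, Hoxa9 1 GC box and 3 CpG pairs, and Hoxc4 a GC box and a half-site. Over the 24 promoters that matched 22 Hox genes, the median CpG ratio was 0.721, against 0.373 for all 32851 promoters of the table. The median was 0.723 over the 6 promoters of detected Hox genes and 0.637 over the other 18. The ranges overlapped, from 0.386 (Hoxa7) to 1.11 (Hoxa5) for the detected genes and from 0.160 (Hoxd11) to 0.974 (Hoxb8) for the others. In the same 250-base windows, CCAAT was present in 58.3% of Hox promoters and 33.8% of all promoters, GGGCGG in 41.7% and 32.7%, and TATAAA in 16.7% and 12.4%. AGGTCA was present in 25% and 14.02%, TTTATG in 20.8% and 10.8%, and TGATTNAT in 8.33% and 2.82%. The matches printed do not overlap one another. They describe letters only, and no binding was measured.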

How the data were processed

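RNA of 2 lung libraries was analysed as 1 group. Per the file headers, the authors deposited expected counts (estimated fragments, not normalized) for genes and transcripts. TPM and FPKM, both scaled for length and depth, are the authors' values too, as is the percent that a transcript takes of its gene. According to the deposited file lists, reads were placed on mm10 with the M4 release of GENCODE. The aligner and the quantifier are not given in these sources. Symbols and coordinates came from GENCODE release M21 on the same build, and 42462 of 43346 gene rows matched. Spike-ins, on 97 rows, held 1.44% of counts in replicate 1 and 1.03% in replicate 2. They and 26248 other rows that name no gene, with 0 and 2 counts, were left out. Contig and junction lists, on mm9, were not used here.

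The 39 genes and all lists were chosen with earlier results of these data known. All members enter the counts and sums, and those that reached 1 TPM in either library are given by value, except 1 gene that is not reported here. Other named genes belong to the lists of cofactors, ParaHox genes, chromatin regulators, neighbours, non-coding cluster genes and markers. Ratios are replicate 1 over replicate 2 of rounded counts scaled by TMM (edgeR 4.0.16, R 4.3.3), with a prior count of 2 for the 2-fold calls, which needed a mean count of at least 10. Fold differences have exact Clopper-Pearson 95% intervals on the rounded counts, and a count of 0 was read as up to 3 counts per library. Python 3.11.15, numpy 2.4.6, pandas 2.3.3, scipy 1.17.1 and matplotlib 3.10.9 were used, and ratios and intervals were tested on simulated data. Alternatives were other thresholds, pseudocounts, count minimums, FPKM, CPM, DESeq2 1.42.0 size factors, library size scaling and either library alone.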

Additional observations from a re-analysis of the deposited data

How the results depend on the processing

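The 12 detected Hox genes became 19 at a threshold of 0.1 TPM, and the 3 detected non-coding genes became 7. As FPKM, the mean sums were 53.1 for cluster A, 48.6 for B and 1.78 for D, as CPM 90.6, 85.0 and 3.18, and without the highest gene of each cluster 34.4, 43.1 and 1.36 TPM. The sum of cluster C was 2.72 TPM without replicate 2 and 0.67 without replicate 1. The median Hox level on the log2 scale was 0.33, against -1.48 with a pseudocount of 0.1, 0.26 as FPKM and 1.10 over genes that reached 0.1 TPM in a library. The count of 5 of 20 Hox genes 2-fold apart became 12 of 39 without a count minimum and 1 of 12 with a minimum of 50 (Hoxc5). Of all genes, 7.51% were 2-fold apart without a minimum and 6.66% with a minimum of 50, against 10.1% with that of 10. Intervals excluded equality for 15 of the 20. They cover counting error only, and the share of all genes with such an interval was not computed. Over genes that reached 0.1 TPM in a library, rho of level and paralog number was -0.75 for all, -0.52 for A, -0.90 for B and -0.90 for D, and too few genes were left for C. For D it was -0.23 by expected count. With either library left out, rho ranged from -0.71 to -0.61 for A and from -0.24 to -0.10 for D. The main transcript share was 90.7% by expected counts. The cause of these differences was not tested. No rho and no median ratio changed sign under these alternatives. Of all values under alternatives, 59 were counted as unchanged and 26 as moved. The limit was the SD of the 2 libraries, or 1.5 times for a count. For the median ratio it was the spread of ratios over all genes, and for the posterior sum its counting interval. Leaving 1 library out could not move a cluster sum or the median level past that SD, by arithmetic. FPKM and CPM change the unit, so the tally is no measure of robustness. Adding paralog 8 to the posterior sum, an alternative chosen after seeing the data, gave 2.10-fold against 3.75-fold. With 2 libraries the spread is poorly known, and genes under 10 counts cannot be ranked. No paired analysis was possible because the libraries form 1 group.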
